A study of Mus musculus with 16 samples.

Results

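The LIM-homeobox genes examined here were the 8 Lhx genes Lhx1, Lhx2, Lhx3, Lhx4, Lhx5, Lhx6, Lhx8 and Lhx9 and the Islet genes Isl1 and Isl2, which made 10 of 25755 mouse genes with a curated RefSeq transcript. They were taken by name, and for each the ChIP-seq peaks within 2500 bp of any of its start sites and over its gene body were read. The cells were R1 mouse ESCs with MycER, in which Myc is joined to the hormone-binding part of the estrogen receptor, and they were compared in 2 cultures. LIF-ESCs were grown with 100 units per ml LIF and without 4-hydroxytamoxifen (OHT), and Myc-ESCs were kept by 50 nM OHT, which activates MycER, without LIF. Since both agents changed together, an effect of Myc activity and one of LIF withdrawal cannot be told apart from these lists. The labels do not say which MycER clone was used for ChIP-seq. Of 16 libraries, 4 were inputs and 2 stood behind each combination of culture and antibody, against H3K4me3, Suz12 or H3K27me3.

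For each combination 1 list of peaks was deposited, with a score per peak that rises with the significance of its enrichment over background, from 50 up to a ceiling of 3100. The lists hold no read counts, so depth is unknown, and lists per library were not analysed here. The differences below therefore could not be set against the spread between replicates, no test was run, and a gene without a peak is a gene without a call, not a gene shown to lack the mark. In LIF-ESCs and Myc-ESCs the lists held 32469 and 30345 peaks for H3K4me3, 11305 and 13907 for Suz12, and 3120 and 16717 for H3K27me3.

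LIM-homeobox proteins bind DNA through a homeodomain and recruit Ldb cofactors through a pair of LIM domains, and combinations of them specify neuron and organ types in the embryo. Lhx1 and Lhx5 act in head and forebrain development, Lhx2 in the eye and cortex and Lhx9 in the gonad. Lhx3 and Lhx4 act in the pituitary and in motor neurons, Lhx6 in cortical interneurons, Lhx8 in forebrain cholinergic neurons and teeth. Isl1 is needed in motor neurons, heart progenitors and pancreatic islets, and Isl2 in motor neurons and retinal ganglion cells. In ESCs such lineage genes are known to be held silent by Polycomb. Suz12 is a core subunit of Polycomb repressive complex 2, which writes H3K27me3, while H3K4me3 marks start sites, and genes that bear both histone marks are called bivalent.

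Suz12 covered most of the start-site window at 9 of the 10 genes, and it did so in LIF-ESCs already. All 10 genes had a Suz12 peak within 2500 bp of a start site in both cultures, where 12.2% of all genes had 1 in LIF-ESCs and 14.7% in Myc-ESCs. A median of 84.6% of the window around their start sites lay under Suz12 peaks with LIF and 94.2% with Myc. Over the 2806 genes with Suz12 at the start site in both cultures, the medians were 20% and 32.5%. Lhx3 was the exception, since its share of 13.2% in LIF-ESCs and 40.7% in Myc-ESCs was the lowest of the family in both cultures. This depended on the start sites used. With those of all RefSeq transcripts, curated or not, Lhx3 had 3393 and 5275 bases under Suz12, against 880 and 2719 with curated sites.

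Within the family, Lhx1 was covered over its whole window of 5001 bp in both cultures, by a peak that was 9720 bp long with LIF and 12530 bp long with Myc, and that ran from upstream of the gene to its last exon or past its end. Bases under Suz12 went from 4783 to 4875 at Lhx4, from 4237 to 4340 at Isl2 and from 4225 to 4952 at Lhx8. They went from 3813 to 4541 at Isl1, from 4201 to 4867 at Lhx5 and from 4535 to 5049 at Lhx6. At these 6 genes the ratio of Myc-ESCs to LIF-ESCs was at most 1.19. Lhx2 and Lhx9, with windows of 10002 bp around 2 separate start sites each, went from 8732 to 9673 and from 8600 to 9179 bases. Lhx3 went from 880 to 2719 bases, or 3.09-fold. In LIF-ESCs its Suz12 lay mainly over exons 2 to 6, and in Myc-ESCs it reached exon 1. Suz12 covered more bases in Myc-ESCs at 9 of the 10 genes, against 81.3% of the genes with Suz12 in both cultures.

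The wider cover came with fewer and longer peaks at 6 genes, where 36.7% of the genes with Suz12 in both cultures had fewer peaks in Myc-ESCs. Isl1 had 6 Suz12 peaks at its start site in LIF-ESCs and 1 peak of 6973 bp in Myc-ESCs. Lhx5 went from 5 peaks to 1, Isl2 from 4 to 1, Lhx2 from 10 to 3, Lhx9 from 8 to 5 and Lhx4 from 3 to 2. Lhx3, Lhx6 and Lhx8 went the other way, from 4 to 7, from 1 to 3 and from 2 to 3 peaks. At Lhx2 the Suz12 domain, taken as peaks joined over gaps of at most 1000 bp, spanned 5565 bp at the first start site and 13191 bp at the second in LIF-ESCs. In Myc-ESCs these were joined into a domain of 23385 bp that held both start sites.

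**Figure D1:**
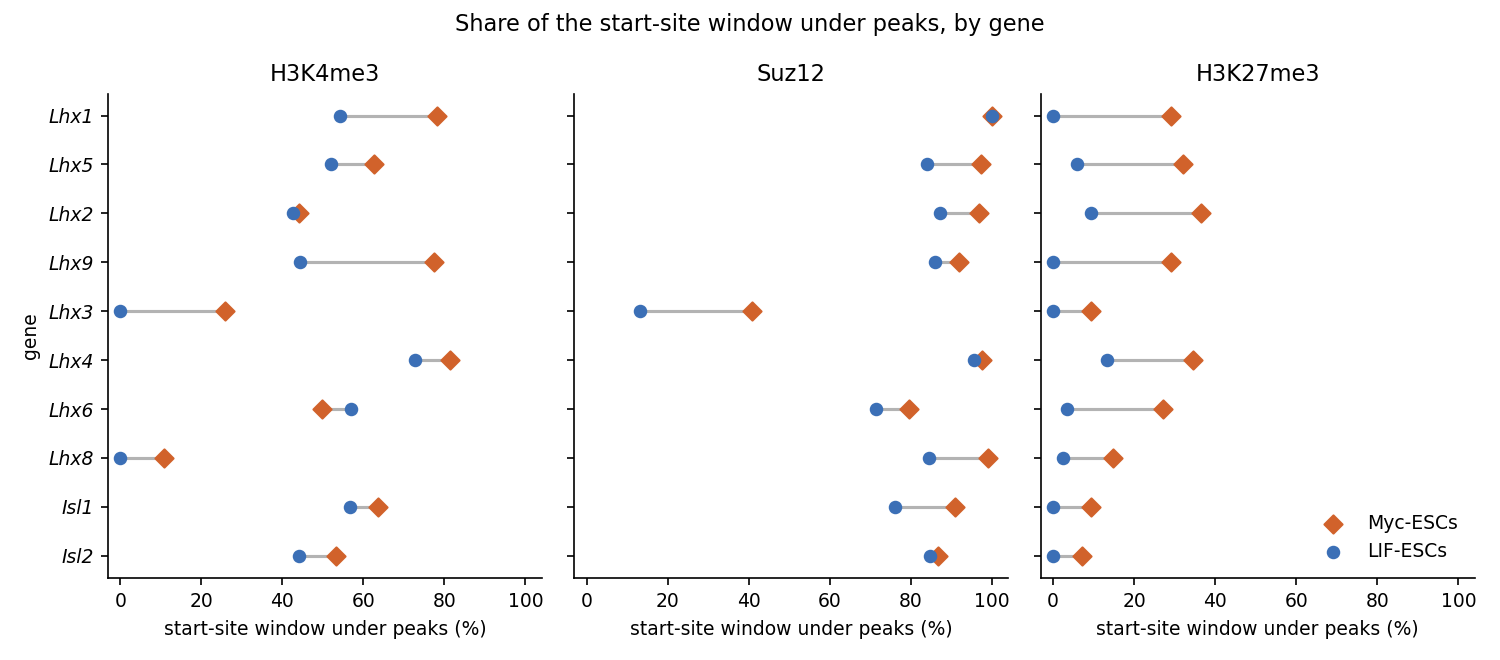
Share of the start-site window (2500 bp on each side of every curated start site) under H3K4me3, Suz12 and H3K27me3 peaks, in percent on the x axis, for each of the 10 genes (y axis). Circles are LIF-ESCs and diamonds Myc-ESCs, 1 peak list each. Suz12 lies above 70% at 9 genes in both cultures, while H3K27me3 lies at or below 13.2% in LIF-ESCs and between 7.22% and 36.6% in Myc-ESCs.

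H3K4me3 was called at the start sites of 8 of the 10 genes with LIF and of all 10 with Myc, beside 62.7% and 63.9% of all genes. At curated start sites, the genes without it in LIF-ESCs were Lhx3 and Lhx8. At Lhx8 the nearest LIF-ESC peak lay 265485 bp away, and the Myc-ESC peak of 1295 bp began 1956 bp downstream of the start site. Its score of 61.67 was higher than that of 5.89% of the Myc-ESC H3K4me3 peaks. At Lhx3 the Myc-ESC peak sat over the second start site, in intron 1, with a score of 69.05, higher than 9.01% of the list. Both calls therefore rest on peaks near the lower limit of the list, and neither was left when only peaks with a score of at least 100 were kept.

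Bases under H3K4me3 were higher in Myc-ESCs at 9 genes, where 84.6% of the genes with Suz12 in both cultures were higher. Lhx9 changed most among the genes marked in both, from 4435 to 7740 bases, as its H3K4me3 peak came to cover the first start site, from which it had lain 354 bp away in LIF-ESCs. Lhx1 went from 2718 to 3911 bases. Lhx6 was the gene with fewer, 3612 bases with LIF and 3158 with Myc, and the peak scored 241 and 142. At Lhx2 the main H3K4me3 peak lay over the second start site, with scores of 592 and 452. The first start site of Lhx2 was under a LIF-ESC peak with a score of 55.5 and lay 1444 bp from the nearest Myc-ESC peak. The highest scores at a start site were those of Isl1, 919 and 748, and Lhx4, 822 and 904.

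H3K27me3 was called at more of the genes, and over more bases of each, in Myc-ESCs. In LIF-ESCs 5 of the 10 genes had a peak at the start site (Lhx2, Lhx4, Lhx5, Lhx6 and Lhx8), and in Myc-ESCs all 10 had, beside 3.84% and 10.8% of all genes. Among the 2806 genes with Suz12 in both cultures, the shares were 28.2% and 72.0%. Those marked in Myc-ESCs alone were the 5 genes Lhx1, Lhx3, Lhx9, Isl1 and Isl2. In this class were 7.69% of all genes, and 1295 of the 2806 genes with Suz12 in both cultures. Of the genes with Suz12 in both cultures and no H3K27me3 in LIF-ESCs, 64.3% had it in Myc-ESCs. Bases under H3K27me3 were higher in Myc-ESCs at all 10 genes, against 69.6% of the genes with Suz12 in both. The peaks at these start sites went from 9 to 72 in number, and the median cover from 1.28% to 28.1% of the window. Over the genes with Suz12 in both cultures that median went from 0% to 5.12%. The Myc-ESC list is 16717 peaks long and the LIF-ESC list 3120, and the values for lists of equal length are given further on.

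These 5 genes were not alike in LIF-ESCs. Lhx1 and Lhx3 had LIF-ESC peaks inside the gene, 4306 bp and 2765 bp from the nearest start site, of 301 and 372 bases in all. Lhx9, Isl1 and Isl2 had none over the gene, and their nearest LIF-ESC peak lay 2494673, 603977 and 56281 bp away. In Myc-ESCs, Lhx9 had 15 peaks and 2905 bases at its start sites, and Lhx1 had 7 peaks and 1458 bases. Lhx3 had 4 peaks and 629 bases, Isl1 3 peaks and 463 bases, and Isl2 2 peaks and 361 bases. At Lhx1 and Lhx9 these were 29.2% and 29% of the window, within the 14.9% to 36.6% of the genes marked in both cultures. At Lhx3, Isl1 and Isl2 they were 9.42%, 9.26% and 7.22%, in short peaks with scores of 92.7, 96.4 and 80.5 at most.

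For each of the 5 genes, the highest-scoring Myc-ESC H3K27me3 peak within the start-site window is printed in GRCm38, 5′ to 3′ on the strand of the gene, to show the sequence on which the Myc-ESC call rests. Capitals mark CpG dinucleotides. Peaks longer than 300 bp are given by their central 300 bases. None of the stretches overlaps an exon of the longest curated RefSeq transcript of its gene, by which introns are numbered. Exons of other transcripts were not looked up. Those of Lhx1 and Isl2 lie upstream of the curated start site, that of Lhx3 in intron 1, that of Lhx9 in intron 3 and that of Isl1 in intron 2.
Lhx1, chr11:84527609-84527908, minus strand: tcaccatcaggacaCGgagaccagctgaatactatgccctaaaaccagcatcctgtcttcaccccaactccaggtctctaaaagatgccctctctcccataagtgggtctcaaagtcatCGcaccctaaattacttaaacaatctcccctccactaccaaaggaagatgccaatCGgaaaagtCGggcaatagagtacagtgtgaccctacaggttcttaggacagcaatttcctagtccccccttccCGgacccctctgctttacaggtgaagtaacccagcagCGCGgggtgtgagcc
Lhx9, chr1:138840195-138840494, minus strand: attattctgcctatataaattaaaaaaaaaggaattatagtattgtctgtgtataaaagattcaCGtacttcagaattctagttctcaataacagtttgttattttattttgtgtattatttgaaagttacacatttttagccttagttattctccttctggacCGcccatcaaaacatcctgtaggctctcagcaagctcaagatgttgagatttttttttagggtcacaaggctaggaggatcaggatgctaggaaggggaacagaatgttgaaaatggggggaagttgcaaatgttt
Lhx3, chr2:26205590-26205789, minus strand: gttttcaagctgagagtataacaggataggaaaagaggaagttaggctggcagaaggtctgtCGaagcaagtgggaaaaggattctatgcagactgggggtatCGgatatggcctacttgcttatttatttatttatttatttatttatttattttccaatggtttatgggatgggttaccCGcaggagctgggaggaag
Isl1, chr13:116307093-116307319, minus strand: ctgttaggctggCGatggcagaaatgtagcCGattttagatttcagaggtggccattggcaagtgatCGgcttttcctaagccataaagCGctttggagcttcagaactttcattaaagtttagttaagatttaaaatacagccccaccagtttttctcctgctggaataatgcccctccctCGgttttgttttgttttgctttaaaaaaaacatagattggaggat
Isl2, chr9:55540274-55540481, plus strand: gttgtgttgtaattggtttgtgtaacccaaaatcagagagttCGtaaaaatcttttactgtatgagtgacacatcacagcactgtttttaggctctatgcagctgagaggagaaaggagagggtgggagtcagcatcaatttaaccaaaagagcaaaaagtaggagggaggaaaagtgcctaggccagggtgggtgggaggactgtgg
The stretches hold 7, 2, 3, 5 and 1 CpG in 300, 300, 200, 227 and 208 bases.

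At the 5 genes marked in both cultures, H3K27me3 went from 937 to 3665 bases at Lhx2, from 659 to 1729 at Lhx4 and from 292 to 1604 at Lhx5. It went from 213 to 1724 bases at Lhx6 and from 128 to 746 at Lhx8. The ratios of Myc-ESCs to LIF-ESCs were 3.91, 2.62, 5.49, 8.09 and 5.83, so the smallest was at Lhx4, the gene with the highest LIF-ESC score. At Lhx4 the same upstream region was called in both cultures, at 473 bp with a score of 231 in LIF-ESCs and at 998 bp with a score of 434 in Myc-ESCs. At Lhx6 the LIF-ESC peak of 213 bp, in intron 1, was not called in Myc-ESCs, and 9 other peaks were. The LIF-ESC start-site peaks of Lhx5 (292 bp) and Lhx8 (128 bp) also overlapped no Myc-ESC H3K27me3 peak, although Myc-ESC peaks lay on either side of each.

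Over the gene bodies the order of the family was different. Lhx1, of 7560 bp (chr11:84517975-84525534), had 3.98% of its body under H3K27me3 in LIF-ESCs and 48.5% in Myc-ESCs, the highest share of the family. Its strongest Myc-ESC peaks spanned 842 bp from intron 1 to intron 3, with a score of 431, and 893 bp at exon 5 with a score of 377. Lhx2 (chr2:38339271-38369737) went from 1285 to 8244 bases, and its strongest peak, of 1119 bp with a score of 524, lay in intron 1 between the start sites. Lhx4 (chr1:155698031-155751726) went from 1400 to 6164 bases. Its strongest peak, with a score of 563 and a length of 1026 bp, was the highest-scoring H3K27me3 peak of the family and lay in intron 1, with its centre 7126 bp from the start site. Lhx9 (chr1:138825186-138848839) went from 0 to 4499 bases and Lhx6 (chr2:36081950-36105992) from 213 to 2542.

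At Isl1 (chr13:116298270-116309688), 4 of 11 Myc-ESC peaks fell at exon 6, the last exon, including the strongest of the gene with a score of 148, and the other 7 at exon 2 and in intron 2. Isl1 thus had 2270 bases under H3K27me3 over the gene but 463 in its start-site window. At Lhx5 (chr5:120431886-120441457) the bases went from 150 to 2138, at Lhx3 (chr2:26200212-26208249) from 372 to 1826, at Lhx8 (chr3:154306288-154330560) from 157 to 687 and at Isl2 (chr9:55538677-55547667) from 0 to 743. Counted over windows and bodies together, the LIF-ESC and Myc-ESC lists held 22 and 157 H3K27me3 peaks of the family, and 70 and 56 Suz12 peaks. The H3K27me3 peaks remained short, with median lengths of 155 bp with LIF and 178 bp with Myc, against 376 and 448 bp for Suz12.

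**Figure D2:**
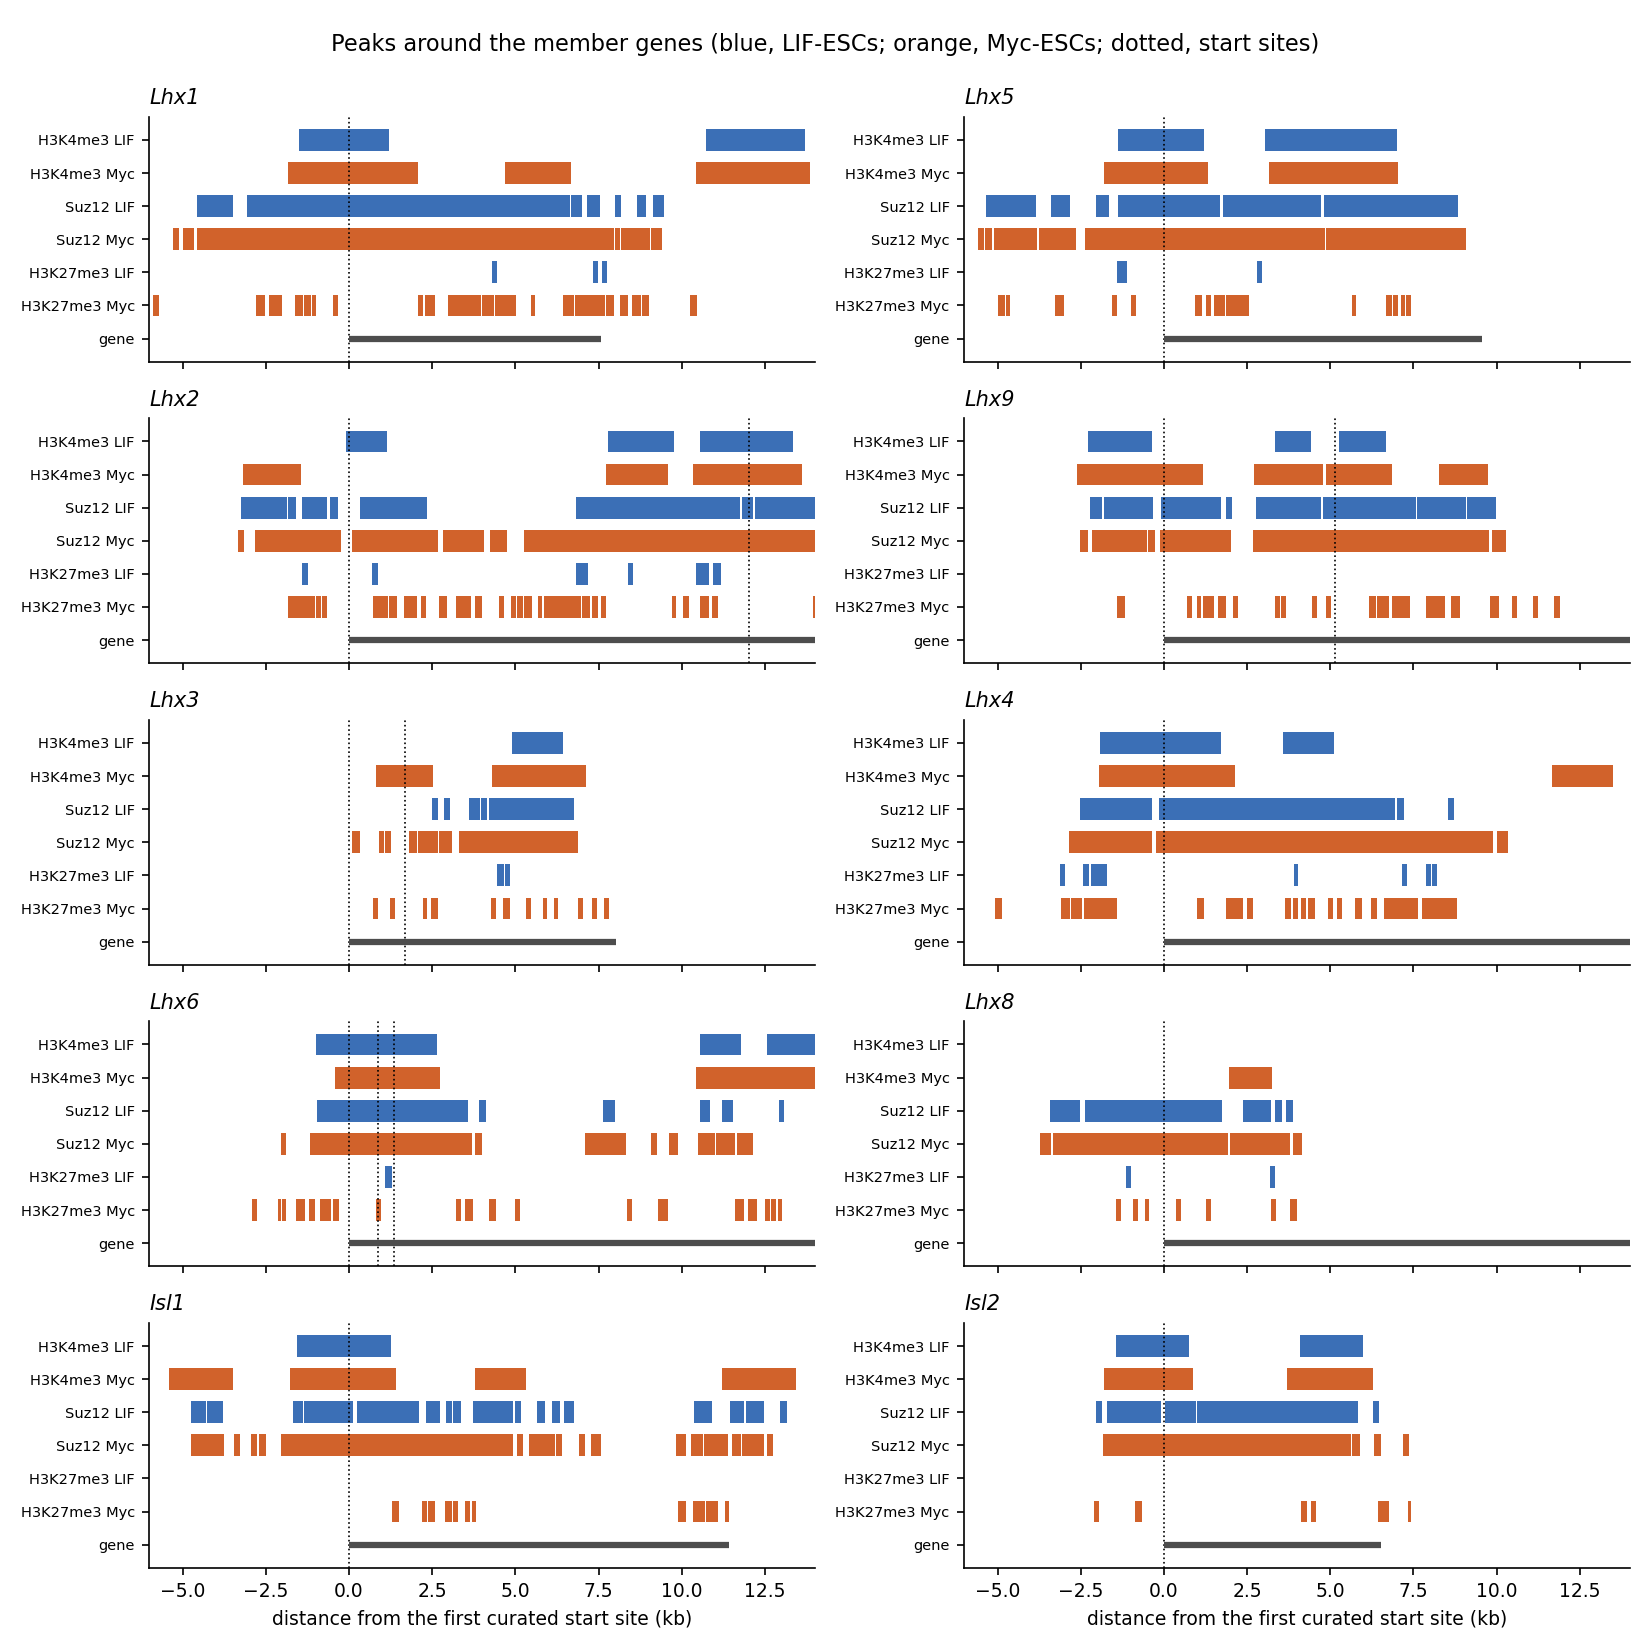
Peaks from 6 lists around each gene, as bars along the distance from its first curated start site in kb (positive, into the gene). Dotted lines are the curated start sites. The grey bar runs from the first of them to the annotated end of the gene, as far as the panel reaches. Long Suz12 domains are present in both cultures, H3K27me3 is sparse in LIF-ESCs and forms rows of short peaks in Myc-ESCs, and Lhx9, Isl1 and Isl2 have no LIF-ESC H3K27me3 peak.

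The Myc-ESC H3K27me3 peaks lay inside or beside the Suz12 domains. Of 157 peaks, 136 overlapped a Myc-ESC Suz12 peak, 154 lay within 1000 bp of one, and 87% of their bases were shared with Suz12. Over the whole Myc-ESC H3K27me3 list, 48% of peaks overlapped a Suz12 peak. That list is not matched for Suz12 cover, and its share within 1000 bp was not counted. In Myc-ESCs Suz12 covered a median of 94.2% of the start-site windows of the family, so overlap there was largely fixed in advance. Over the gene bodies its cover ranged from 16.5% at Lhx8 to 100% at Lhx1. In LIF-ESCs 19 of 22 peaks of the family overlapped Suz12 and 85.3% of their bases were shared, and 46.2% of the whole LIF-ESC list overlapped Suz12. With H3K4me3 the Myc-ESC peaks shared fewer bases, 28.1%, and 59 of 157 overlapped an H3K4me3 peak, close to the 34.6% of the whole Myc-ESC H3K27me3 list.

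Around the start sites the marks were laid out in order. Averaged over the 10 genes, 79.3% of the bases within 500 bp of a start site lay under H3K4me3 in Myc-ESCs and 89.6% under Suz12, but 6.21% under H3K27me3. From 500 to 2500 bp upstream H3K27me3 covered 26.4% of the bases, from 500 to 2500 bp downstream 27.7%, and from 2500 to 5000 bp downstream 30.8%. Of the 157 peaks, 6 had their centre within 500 bp of a start site, a small part of the windows and gene bodies over which they were counted. The LIF-ESC values were 1.42% at the start site, 7.36% upstream and 0.735% downstream. The dip at the start site was present in the other Polycomb targets as well, with 4.73% at the start site and 10.3% and 12% on either side in Myc-ESCs. Suz12 extended far into the genes. From 2500 to 5000 bp downstream it covered 76.7% of the bases of the 10 genes with LIF and 86.5% with Myc, against means of 11% and 14.9% over the genes with Suz12 in both cultures. Lhx9, Lhx3 and Lhx6 have several start sites whose flanks overlap, and the sites of a gene were averaged first.

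**Figure D3:**
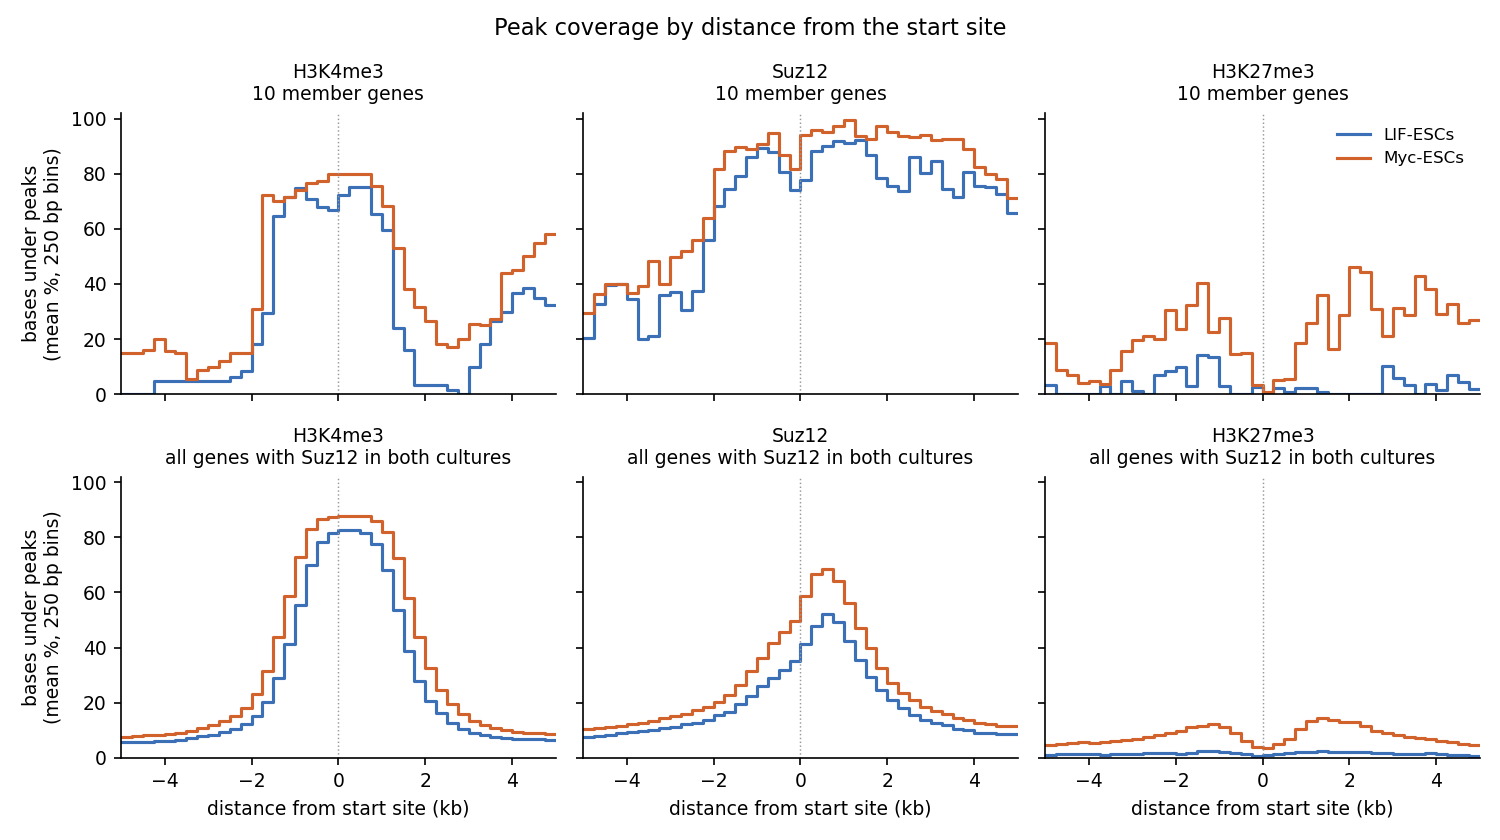
Mean share of bases under peaks in bins of 250 bp, from 5 kb upstream to 5 kb downstream of the start site, in LIF-ESCs (blue) and Myc-ESCs (orange). The upper row averages the 10 genes and the lower row the 2806 genes with Suz12 in both cultures. H3K27me3 in Myc-ESCs is low within 500 bp of the start site (6.21%) and higher on either side (26.4% and 27.7%), while Suz12 stays high into the gene.

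Set against the other Polycomb targets, the Suz12 cover of Lhx1 in LIF-ESCs was higher than that of 99.4% of the genes with Suz12 in both cultures, and at 8 more of the 10 genes it was higher than that of at least 90.3%. Lhx3 was higher than 37%. For H3K27me3 in Myc-ESCs, the cover was higher than that of 91.3% to 95.6% of these genes at Lhx6, Lhx9, Lhx1, Lhx5, Lhx4 and Lhx2. It was higher than that of 59.8% at Isl2, 65.2% at Isl1, 65.9% at Lhx3 and 77.7% at Lhx8. In Myc-ESCs 6 genes thus had 27.2% to 36.6% of the window under H3K27me3 and 4 had 7.22% to 14.9%, although Isl1, Isl2 and Lhx8 had 90.8%, 86.8% and 99% of the window under Suz12. Both Islet genes were among the 4, while the relatives Lhx3 and Lhx4 lay on different sides, as did Lhx6 and Lhx8.

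**Figure D4:**
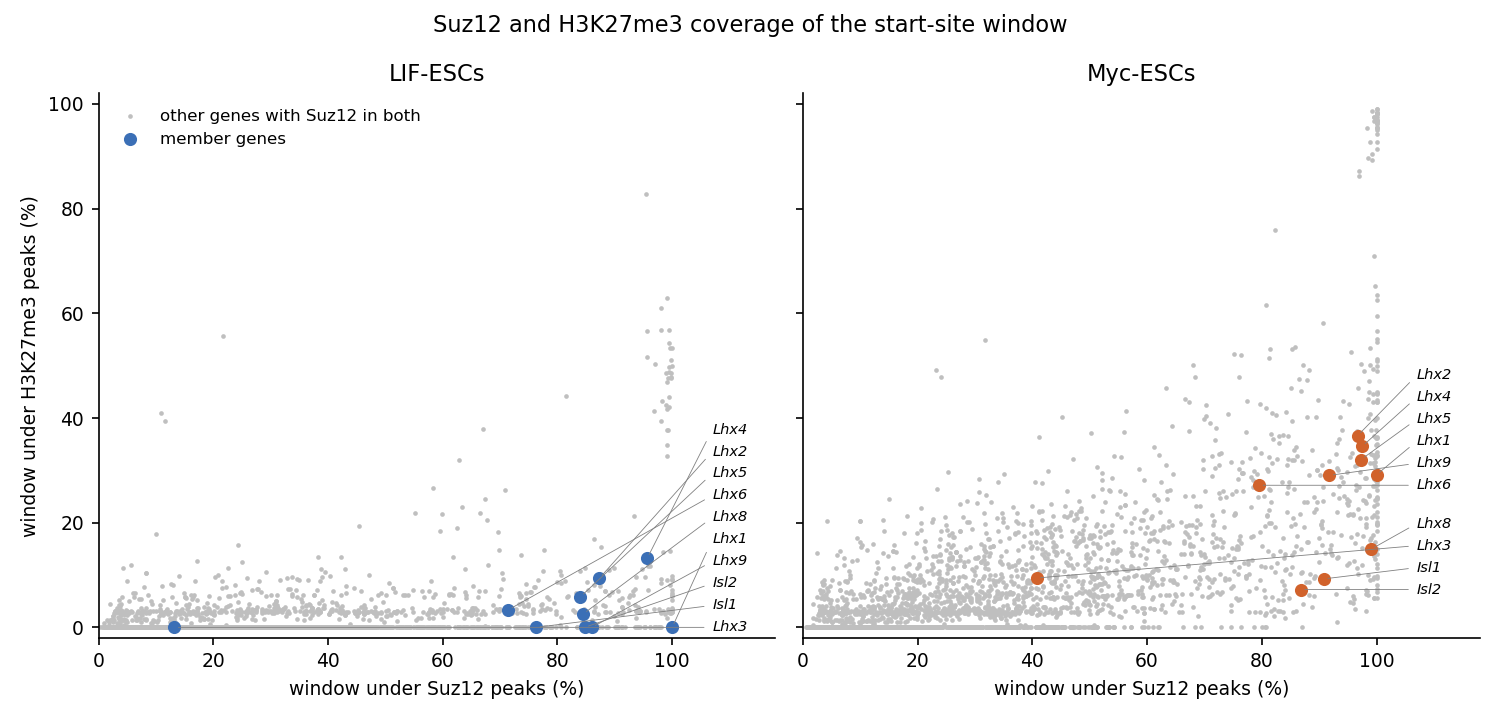
Share of the start-site window under Suz12 peaks (x axis, percent) and under H3K27me3 peaks (y axis, percent) in LIF-ESCs and Myc-ESCs. Coloured points are the 10 genes and grey points the other genes with Suz12 in both cultures. In LIF-ESCs the 10 genes lie at or below 13.2% H3K27me3, and in Myc-ESCs Lhx8, Isl1 and Isl2 lie at 14.9% or below with a Suz12 cover of 86.8% or more.

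The number of genes with H3K27me3 depended on which peaks were counted. With both H3K27me3 lists limited to their 3120 highest-scoring peaks, 5 of the genes were marked with LIF and 6 with Myc. The Myc-ESC genes were then Lhx1, Lhx2, Lhx4, Lhx5, Lhx6 and Lhx9, so that Lhx1 and Lhx9 remained as marked in Myc-ESCs alone. Lhx8 had a call in LIF-ESCs alone, and Lhx3, Isl1 and Isl2 had none in either culture. Over the genes with Suz12 in both cultures, 28.2% and 29.7% were marked on lists of equal length. With a score of at least 100 in both lists, Lhx2 and Lhx4 were marked in LIF-ESCs and the same 6 genes in Myc-ESCs, beside 3.99% and 31.3%. These 6 genes were the ones with a Myc-ESC call on lists of equal length. At Lhx1 and Lhx9, without a LIF-ESC call, a higher Myc-ESC value was therefore fixed in advance. Bases on these lists went from 0 to 1114 at Lhx9, from 0 to 815 at Lhx1 and from 937 to 1879 at Lhx2. They went from 659 to 1346 at Lhx4, from 292 to 951 at Lhx5 and from 213 to 604 at Lhx6. Lhx8 went the other way, from 128 to 0. How many of the genes with Suz12 in both cultures had more bases on these lists was not counted. Whether the libraries behind the lists differed in depth was not tested.

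**Figure D5:**
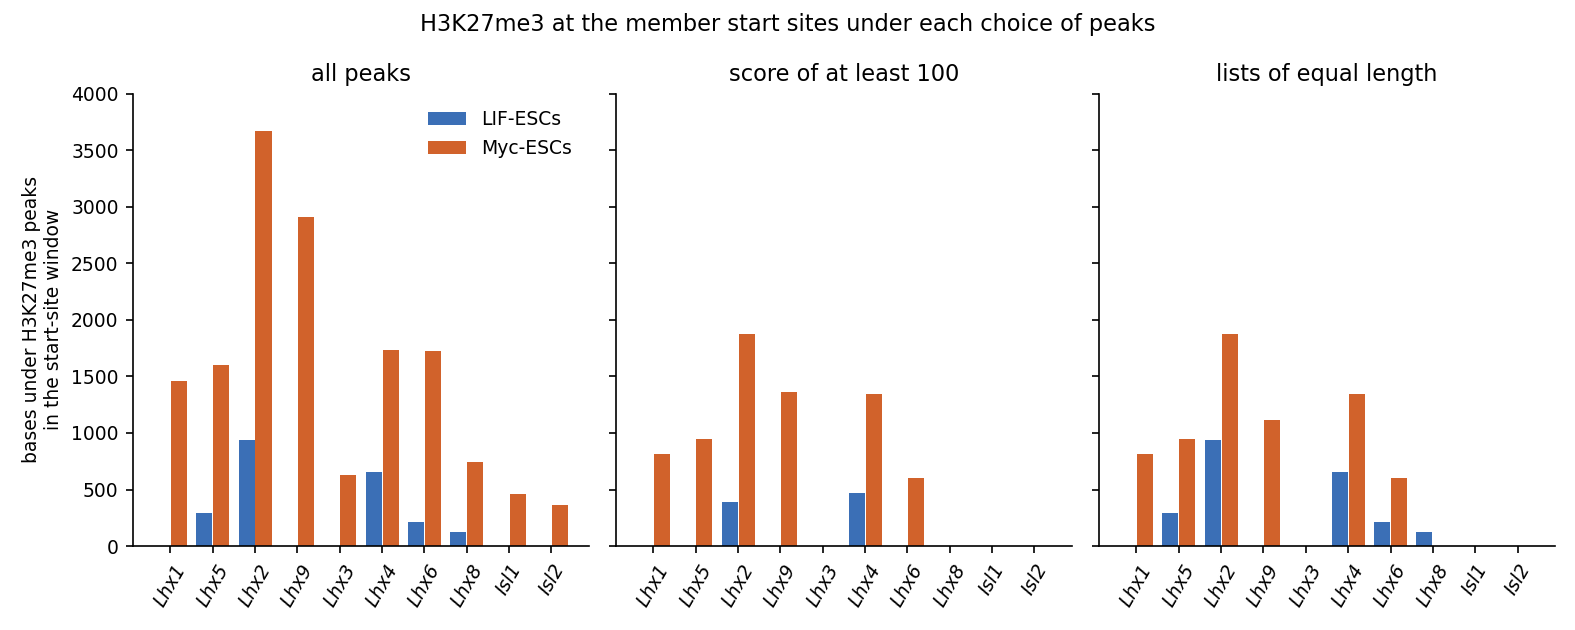
Bases under H3K27me3 peaks in the start-site window of each gene with all peaks, with peaks scoring 100 or more, and with lists of equal length. Bars are LIF-ESCs (blue) and Myc-ESCs (orange), 1 list each. Lhx1, Lhx5, Lhx2, Lhx9, Lhx4 and Lhx6 stand higher in Myc-ESCs in every panel, while Lhx3, Isl1 and Isl2 have bars in the first panel alone. Lhx8 stands higher in Myc-ESCs in the first panel and has a LIF-ESC bar alone with lists of equal length.

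By their medians, the H3K27me3 peaks of the family lay in sequence poorer in CpG than its promoters. Over all 157 Myc-ESC H3K27me3 peaks of the family, the median GC content was 47.5% and the median observed over expected CpG 0.268, both above the medians of the whole list, 43.4% and 0.214. Over its 56 Myc-ESC Suz12 peaks the medians were 49.9% and 0.411, both below those of the list, 52.3% and 0.477. For the highest-scoring H3K27me3 peak within the start-site window of each of the 10 genes, GC content ranged from 35.6% to 55.4%, with a median of 43.1%, and observed over expected CpG had a median of 0.206. For the highest-scoring Suz12 peak of each window (the longer where scores were equal) the medians were 52.7% and 0.528. The RefSeq promoter table of GRCm38.p6 held 13 promoters of 9 of the genes, each from 250 bases before to 50 after a start site, and none for Lhx5. Their median GC content was 65.7% and their median observed over expected CpG 0.678, beside 52.7% and 0.384 over 32851 promoters and 62.7% and 0.684 over those of genes with Suz12 in both cultures. Lhx8 went the other way, with an observed over expected CpG of 0.4 in its highest-scoring H3K27me3 peak and 0.241 in its promoter.

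The extremes within the family were Isl1, with an observed over expected CpG of 1.05 and H3K4me3 in both cultures, and Lhx8, with 0.241 and no H3K4me3 at the start site in LIF-ESCs. The 250 bases before their start sites are printed from that table, with CpG in capitals.
Isl1, chr13:116309689-116309938, minus strand: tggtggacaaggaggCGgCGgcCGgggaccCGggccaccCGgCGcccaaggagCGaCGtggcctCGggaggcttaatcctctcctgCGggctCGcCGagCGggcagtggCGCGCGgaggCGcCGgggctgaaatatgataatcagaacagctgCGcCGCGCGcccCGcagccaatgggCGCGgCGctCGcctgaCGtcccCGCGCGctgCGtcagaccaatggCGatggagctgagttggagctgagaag
Lhx8, chr3:154330561-154330810, minus strand: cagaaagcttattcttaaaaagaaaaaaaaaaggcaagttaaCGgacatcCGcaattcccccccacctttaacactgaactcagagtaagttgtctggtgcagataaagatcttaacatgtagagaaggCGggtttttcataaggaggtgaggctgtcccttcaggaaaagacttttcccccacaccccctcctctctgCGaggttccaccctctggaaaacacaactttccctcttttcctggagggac
They hold 33 and 4 CpG. The promoter of Lhx9 at its second start site was also poor, at 0.261, and that start site lay 131 bp from the nearest LIF-ESC H3K4me3 peak. The promoters of Lhx3, the other gene without H3K4me3 at the start site in LIF-ESCs, had ratios of 0.745 and 0.466. Whether CpG content and H3K4me3 go together was not tested. The E-box CACGTG, which Myc with Max is known to bind, was searched on both strands and was in 0 of the 13 promoters, where 7.15% of all promoters and 7.5% of those of genes with Suz12 in both cultures held it. GAGAG, on either strand, was in 10 of the 13, beside 62% of all promoters and 66.7% of those of genes with Suz12 in both cultures. A missing match says only that these letters are not in this window.

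The relatives and partners of the family were read in the same way. Lmx1a and Lmx1b, LIM-homeobox genes of the dorsal neural tube and midbrain, had Suz12 at the start site in both cultures, 4321 and 4752 bases at Lmx1a and 4689 and 4743 at Lmx1b. H3K27me3 went from 844 to 1171 bases at Lmx1a and from 154 to 1229 at Lmx1b, which had no H3K4me3 peak within 2500 bp of its start site in either culture. Of 10 genes for LIM cofactors and regulators (Ldb1, Ldb2, Ssbp2, Ssbp3, Ssbp4, Lmo1, Lmo2, Lmo3, Lmo4 and Rlim), 5 had Suz12 at the start site with LIF and 3 with Myc. The cofactor genes Ldb1, Ssbp3 and Ssbp4 and the ubiquitin ligase gene Rlim had H3K4me3 and no Suz12 or H3K27me3 in both cultures, and Ldb2 had none of the 3. Lmo4 and Lmo3, which encode LIM-only proteins that compete for Ldb, had 1998 and 627 bases under Suz12 in LIF-ESCs and 0 in Myc-ESCs. H3K27me3 was called at 3 of the 10 in Myc-ESCs and went in both directions. Lmo2, needed for blood cell development, had 309 bases in LIF-ESCs and 1329 in Myc-ESCs, Lmo1 had 297 and 171, and Ssbp2 had 0 and 157.

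Some windows are shared with other genes, whose chromatin cannot be told apart from that of the family. Long noncoding RNA genes start next to Lhx1 (Lhx1os), Lhx5 (Gm27199 and Gm31976), Lhx2 (Gm46736) and Lhx8 (AI606473), and Gm27197 and Gm13584 lie within Lhx2. The window of Lhx3 holds the 3′ end of Qsox2, a sulfhydryl oxidase gene. Among all genes, those whose bases under the 6 lists were closest to the medians of the family were Gm27199, Ebf3 and Hoxd13, at Euclidean distances of 455, 477 and 526 bases. Gm27199 shares its window with Lhx5. Ebf3, which encodes a neuronal transcription factor, had 4364 and 4654 bases under Suz12 and 0 and 1526 under H3K27me3, and Hoxd13, which patterns digits, had 4634 and 4829 and 313 and 1878.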

How the data were processed

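The authors aligned the reads to GRCm38 with Bowtie2 (2.2.3), kept reads with a best location, and called peaks over background with MACS (1.4.2) at its default parameters, per the study's methods and the submitters' processing notes. They deposited 6 peak lists in which each peak has a position and a score, a p-value on a log scale that grows with depth and enrichment. Scores were used to rank and filter peaks within a list, never as signal. Pooling of the 2 libraries behind each list is not given in the sources used here. All 10 genes were matched by symbol in RefSeq GRCm38.p6, with 15 curated start sites. Bases under peaks were counted in the union of windows of 2500 bp on each side, and over the annotated gene, with Python 3.11.15 and numpy 2.4.6. The overlap code was tested on simulated data, where 0 of 4000 comparisons differed from a plain loop. The genes named were the 10 members, Lmx1a and Lmx1b, 10 cofactor genes, overlapping genes and the 3 nearest in Euclidean distance. The members and lists were chosen with earlier results of these data known. As alternatives, peaks scoring 100 or more, lists of equal length, windows of 1000 and 5000 bp, other start sites, and a reach of 0 or 5000 bp to Suz12 were tried. Expression was not analysed here. Coordinates count from 1.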

Additional observations from a re-analysis of the deposited data

How the results depend on the processing

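Of 70 alternative values for 12 counts and medians, 53 moved by at most 1.5-fold and 17 by more. A count cannot change sign, so a change of direction was possible for the median differences alone, and neither median changed direction. Single genes did, among them Lhx8, whose H3K27me3 went from 128 to 0 bases on lists of equal length. The counts of genes with H3K4me3 or Suz12 moved by at most 1.5-fold. With a score of at least 100, H3K27me3 was at 2 genes in LIF-ESCs (5 with all peaks) and 6 in Myc-ESCs (10). More bases in Myc-ESCs were found at 6 genes (10), and the median difference was 710 bases (1191). At Lhx1, Lhx5, Lhx6 and Lhx9, without a LIF-ESC call at this score, a higher Myc-ESC value was fixed in advance. All 40 Myc-ESC peaks that were kept lay near Suz12 (154 of 157). On lists of equal length, 6 genes were marked in Myc-ESCs, 2 in Myc-ESCs only (5), and 6 had more bases. At neither setting was it counted how many genes with Suz12 in both cultures were marked in Myc-ESCs only or had more bases. The median difference was 525 bases, and all 38 peaks that were kept lay near Suz12. Fewer peaks are kept under both by construction. With windows of 1000 bp, 3 genes had H3K27me3 in LIF-ESCs, and the median difference was 278 bases for H3K27me3 and 112 for Suz12 (622). With 5000 bp, 3 genes had H3K27me3 in Myc-ESCs only, and the medians were 1952 and 1038 bases. With 1 start site per gene, taken at the upstream edge of the annotated gene, the H3K27me3 median was 614 bases. Lhx4 then had 0 bases in both cultures (659 and 1729), and Lhx9 had 611 in Myc-ESCs (2905). How much each gene added to the lower median was not tested. With the start sites of all RefSeq transcripts, Lhx3 had 1547 bases under H3K4me3 and 372 under H3K27me3 in LIF-ESCs (0 and 0). H3K4me3 was then at 9 genes in LIF-ESCs (8), and 4 genes had H3K27me3 in Myc-ESCs only (5). The window sets how many bases can be counted. No paired analysis was possible because each list stands for a culture and antibody as a whole and carries no replicate number. No read counts were at hand, so what depth allowed each list to show is unknown.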
